A study of Danio rerio with 15 samples.

Results

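mrc1a, a gene of vessels, and lcp1 and cpa5, genes of white blood cells, were followed across cells sorted from the zebrafish trunk. They were taken as every probe set that the platform annotation ties to these symbols alone, which gave 1 probe set for each gene and 3 of the 15502 probe sets tested. They are 3 of the 8793 genes that the array names in this way. The genes were picked with their levels on these arrays known, so all differences between groups for them are descriptions and carry no test.

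RNA was measured on 15 Affymetrix arrays, each a separate sorted sample of embryos at 27 hours after fertilization, raised at 28.5 °C for the first 10 hours and at 32 °C after that. V1 cells, inhibitory interneurons of the ventral spinal cord called CiA in fish, were sorted by GFP from the Tg(pax2a:GFP) line after the pronephros region had been cut away (6 arrays). All spinal neurons were sorted by EGFP from the Tg(elavl3:EGFP) line (5 arrays), and unselected trunk cells of spinal cord and its neighbouring tissues were sorted, with no transgenic line used according to the labels (4 arrays). pax2a is also active in other spinal interneurons and in the pronephros, and elavl3 marks neurons broadly.

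Endothelial cells line the blood and lymph vessels, and by the stage studied the first artery and vein of the zebrafish trunk have formed. The mannose receptor gene mrc1a encodes an endocytic lectin receptor and marks veins and, later, lymphatics in zebrafish embryos. Leukocytes of the embryo are early macrophages and neutrophils, which roam through tissues. lcp1 encodes L-plastin, a protein that bundles actin filaments and marks leukocytes broadly, and cpa5 encodes a carboxypeptidase used as a marker of mast cells and their precursors in zebrafish. Red cells circulate in the same vessels but are a separate lineage, marked by globins and heme enzymes.

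Marker genes followed the labels of the neuronal groups. The V1 gene en1b read 10.83 to 11.49 in V1 arrays, 9.37 to 9.79 in all-neuron arrays and 7.95 to 8.33 in trunk arrays on the log2 scale of the deposited RMA values. The neuronal gene elavl3 read 10.09 to 11.23 in V1 arrays, 9.79 to 10.76 in all-neuron arrays and 8.49 to 9.44 in trunk arrays. Arrays within a group did not all resemble each other. On the control probe set named AFFX-Dr-U43284-1_s_at the level was 8.02 and 8.16 in trunk arrays 1 and 2 but 5.63 and 5.71 in trunk arrays 3 and 4, beside 4.98 to 5.59 in the V1 group and 10.16 to 10.76 in the all-neuron group. The mean of 24 skeletal muscle genes was 8.91 to 9.19 in all-neuron arrays 1 to 3 and 7.17 and 7.42 in arrays 4 and 5. What this control probe set detects, and whether the trunk samples differed in genetic background, was not stated in the labels used. The values of mrc1a, lcp1 and cpa5 are given with and without these arrays. No detection call was used, so a low level may be background and gets no fold. A log2 difference that involves such a level is the difference of the values as deposited, not an exact size of change. Levels of different genes are not compared, since probe sets differ in response.

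The vessel gene mrc1a was bright in V1 and trunk arrays and dim in all-neuron arrays. It read 6.87, 9.18, 7.50, 8.40, 8.72 and 8.20 in V1 arrays 1 to 6. All-neuron arrays read 4.13, 4.25, 4.06, 3.77 and 3.78. Trunk arrays read 7.87, 6.90, 7.49 and 7.55. All V1 and all trunk arrays lay above all all-neuron arrays, by gaps of 2.62 and 2.65, while V1 and trunk arrays overlapped. The means were 8.14 ± 0.84 (SD, n = 6) in V1, 4.00 ± 0.21 (n = 5) in all neurons and 7.45 ± 0.40 (n = 4) in trunk. The log2 difference was 4.15 (SE 0.32) between V1 and all neurons, 0.69 (SE 0.34) between V1 and trunk, and −3.45 (SE 0.35) between all neurons and trunk. With all-neuron arrays 4 and 5 alone, the differences were 4.37 between V1 and all neurons and −3.68 between all neurons and trunk. With trunk arrays 3 and 4 alone, V1 minus trunk was 0.63 and all neurons minus trunk −3.52, and with trunk arrays 1 and 2 alone these were 0.76 and −3.39. V1 arrays spanned 2.31 log2 units for mrc1a, against 0.48 in all-neuron arrays and 0.97 in trunk arrays.

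The leukocyte gene lcp1 was brightest in trunk arrays and stood only slightly higher in V1 than in all-neuron arrays. V1 arrays 1 to 6 read 4.84, 5.35, 4.87, 5.29, 5.22 and 4.76. All-neuron arrays read 4.35, 4.29, 4.37, 4.57 and 4.66. Trunk arrays read 7.19, 6.89, 6.21 and 6.12. The lowest V1 array lay 0.10 above the highest all-neuron array, and the lowest trunk array lay 0.77 above the highest V1 array, so the 3 groups did not overlap. The log2 difference was 0.61 (SE 0.18) between V1 (5.05 ± 0.26, n = 6) and all neurons (4.45 ± 0.16, n = 5). Taking all-neuron arrays 4 and 5 alone, the brighter ones for lcp1, it was 0.44, and all neurons minus trunk was −1.99. The difference was −1.55 (SE 0.19) between V1 and trunk (6.60 ± 0.52, n = 4), and −2.15 (SE 0.20) between all neurons and trunk. With trunk arrays 3 and 4 alone these last differences were −1.11 and −1.72, and with trunk arrays 1 and 2 alone −1.98 and −2.59.

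The mast cell gene cpa5 was dim in every group and brighter in trunk arrays alone. V1 arrays read 4.24 to 4.42 with a median of 4.31, a span of 0.18. All-neuron arrays read 4.10, 4.44, 4.42, 4.44 and 4.37, and trunk arrays 5.27, 5.37, 4.72 and 4.67. V1 and all-neuron arrays overlapped, and both lay below every trunk array, by 0.26 and 0.23. None of these values reached 5.52, the median of all values, and no detection call shows that they lie above background. The log2 difference was −0.04 (SE 0.12) between V1 and all neurons, −0.70 (SE 0.13) between V1 and trunk and −0.65 (SE 0.13) between all neurons and trunk. Against trunk arrays 3 and 4 alone the last 2 were −0.39 and −0.34, and against trunk arrays 1 and 2 alone −1.01 and −0.97. With all-neuron arrays 4 and 5 alone V1 minus all neurons was −0.09 and all neurons minus trunk −0.60.

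**Figure D1:**
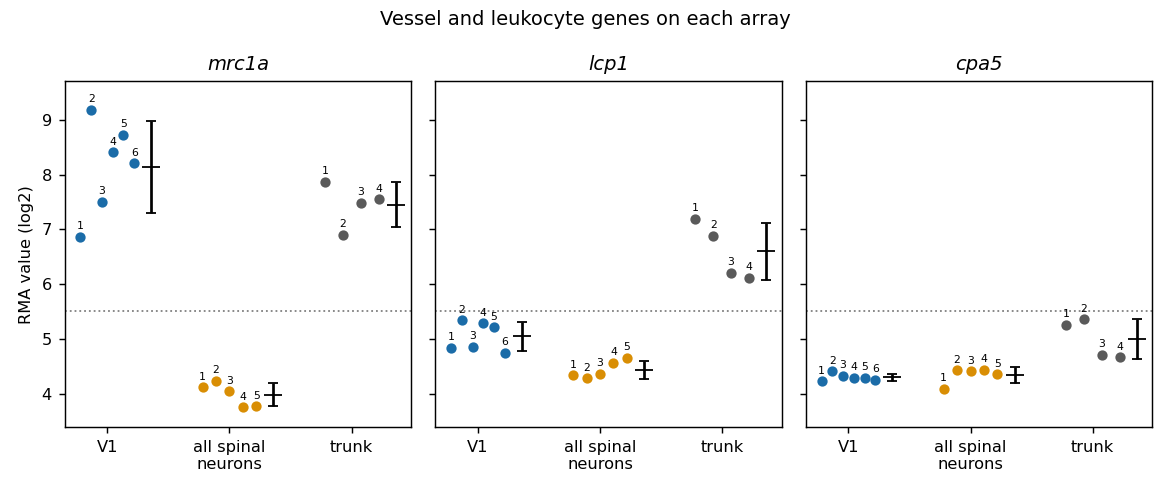
RMA values (log2, vertical axis) of mrc1a, lcp1 and cpa5 on each array, with the array number above each point, the mean and SD as a bar at the right of each group, and the median of all values (5.52) as a dotted line. mrc1a is high in V1 and trunk arrays and low in all-neuron arrays, whereas lcp1 and cpa5 are highest in trunk arrays, and among these in arrays 1 and 2.

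Read as counts, 2 of the 3 genes (mrc1a and lcp1) stood above all neurons in V1 without overlap, a state that 8.04% of all probe sets shared, and 0 lay below, beside 5.46%. Between V1 and trunk 2 (lcp1 and cpa5) lay below without overlap, beside 11.5% of all probe sets, and 0 above, beside 15.3%. Between all neurons and trunk all 3 lay below, beside 18.1%, and 0 above, beside 18.7%. These counts follow from how the genes were picked. The comparisons share arrays, since each group serves in 2 of them. In sorted bulk samples fewer cells of a type and less RNA per cell cannot be told apart.

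Further vessel genes were higher in V1 arrays than in all-neuron arrays. Of 20 measured genes, from 49 on a list of vessel endothelium, 10 rose and 1 fell in V1 arrays relative to all neurons, beside 12.7% and 9.3% of all probe sets called higher and lower. The median log2 difference was 0.59 over the list and −0.01 over all probe sets. The water channel gene aqp8a.1 rose most (4.58, SE 0.34, adjusted p = 2.6e-07), at 8.82 ± 0.89 in V1 arrays (SD, n = 6) and 4.25 ± 0.16 in all-neuron arrays (n = 5). The ETS factor gene fli1, an early endothelial regulator, followed (3.23, SE 0.27, adjusted p = 5.82e-07), although its other probe set differed by 0.04. plvapb, which encodes a protein of endothelial fenestrae and caveolae, rose by 2.92 (SE 0.31, adjusted p = 5.85e-06). kdrl, a receptor for vascular endothelial growth factor, rose by 2.83 (SE 0.31, adjusted p = 8.8e-06). The gene that fell was tal1 (−1.80, adjusted p = 1.13e-05), a factor of blood and endothelial progenitors that spinal V2b interneurons also express. Of the 20 genes, 8 stayed below the median of all values in every group. Among them sox17, cd34 and ldb2a were not called, while tie1, tek and erg were among the 10 that rose.

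Genes of venous and lymphatic endothelium, the part of the vessel wall that mrc1a marks, gave 2 calls. Of 7 measured genes, from 12 listed, 2 rose in V1 arrays relative to all neurons and 0 fell (12.7% and 9.3% of all probe sets), with a median of 0.31 beside −0.01 over all probe sets. The endocytic adaptor gene dab2 rose by 3.07 (SE 0.24, adjusted p = 3.7e-07), at 8.28 ± 0.61 in V1 and 5.21 ± 0.19 in all-neuron arrays. flt4, the receptor of lymphangiogenic growth factors, rose by 1.85 (SE 0.24, adjusted p = 3.87e-05). The lymphatic genes prox1a (−0.43, adjusted p = 0.0532) and lyve1a (0.02, adjusted p = 0.918) did not pass. At 3.94 and 4.31 in V1 arrays both were dim.

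Against trunk arrays most vessel genes of V1 arrays did not pass the test. Of 20 vessel genes 5 were higher in V1 arrays and 0 lower (22% and 18% of all probe sets), with a median of 0.26 beside −0.02. aqp8a.1 rose by 1.44 (SE 0.37, adjusted p = 0.00506) over trunk arrays, which read 7.38 ± 0.52 (n = 4). Against trunk arrays 1 and 2 alone it was 1.19 (adjusted p = 0.0695). The sphingosine receptor gene s1pr1 (0.78, adjusted p = 0.000247) and the Notch target hey2 (0.72, adjusted p = 0.00356) also rose. Neither s1pr1 (0.22, adjusted p = 0.249) nor hey2 (0.40, adjusted p = 0.0981) passed between V1 and all neurons. The other s1pr1 probe set differed by 0.29 between V1 and trunk and by −0.19 between V1 and all neurons. lmo2, a cofactor of blood and endothelial progenitors, rose by 0.69 (adjusted p = 0.00424), but stood at 0.45 (adjusted p = 0.0972) against trunk arrays 3 and 4 alone. tek, an angiopoietin receptor gene, rose by 0.60 (adjusted p = 0.0164) at a dim level, a call that ended without trunk array 2 (adjusted p = 0.0521). kdrl (0.42, adjusted p = 0.339), fli1 (0.25, adjusted p = 0.523) and dab2 (0.40, adjusted p = 0.235) were not called. Among the 7 venous and lymphatic genes nr2f2, a factor of venous identity that neurons also express, rose (0.60, adjusted p = 0.00887). Its other probe set differed by 0.04, and the call ended against trunk arrays 3 and 4 alone (adjusted p = 0.102).

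Part of these genes were lower in all-neuron than in trunk arrays. Of 20 vessel genes 9 fell and 2 rose (20.6% and 20.8% of all probe sets), and of 7 venous and lymphatic genes 3 fell and 0 rose. Leaving out single arrays, 7 to 8 vessel genes fell. Among the 9, lmo2 (−0.50, adjusted p = 0.034) lost its call without any 1 of 6 arrays (adjusted p between 0.0561 and 0.131). aqp8a.1 fell by 3.13 (SE 0.38, adjusted p = 6.75e-06) and fli1 fell by 2.99 (SE 0.30, adjusted p = 9.26e-07), with −0.12 for its other probe set. dab2 fell by 2.67 (adjusted p = 1.02e-06) and flt4 fell by 1.43 (adjusted p = 0.000331). ephb4b, a receptor related to the venous receptor gene ephb4a, fell by 0.47 (adjusted p = 0.0208), but lost its call without all-neuron array 4 or 5 or trunk array 1 or 4 (adjusted p between 0.0512 and 0.0729). The 2 that rose were tal1 (1.43, adjusted p = 8.23e-05) and s1pr1 (0.56, adjusted p = 0.00407). s1pr1 stood at 0.32 (adjusted p = 0.159) when all-neuron arrays 4 and 5 alone were used. With those arrays alone 5 vessel genes fell, beside 2657 of all 15502 probe sets (3196 with all arrays).

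**Figure D2:**
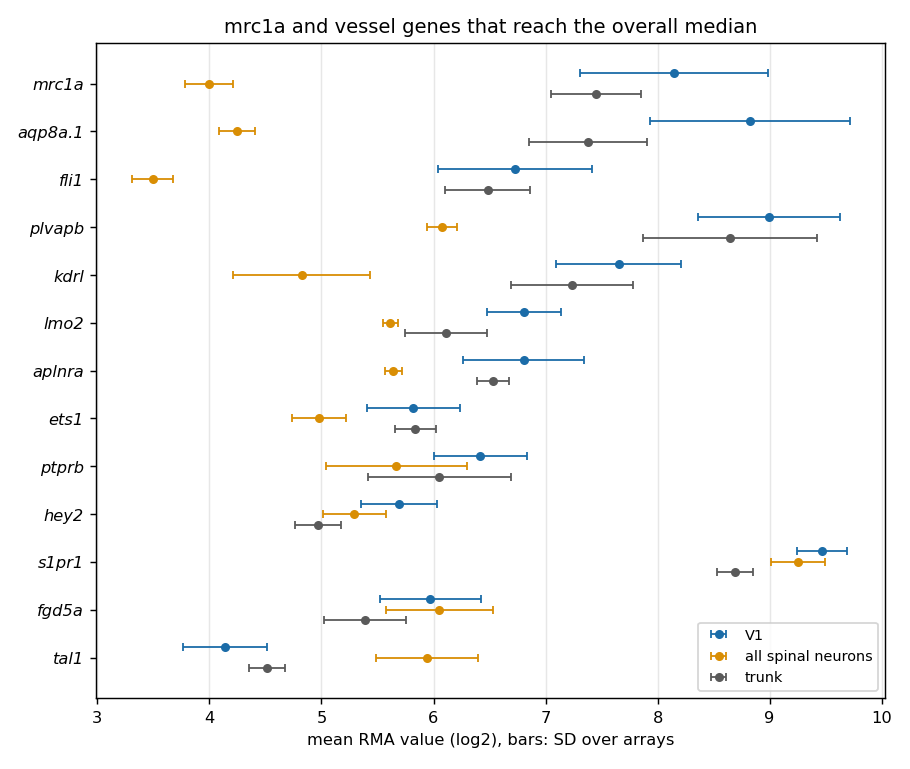
Mean RMA value (log2, horizontal axis) of mrc1a and of the vessel genes that reach 5.52 in at least 1 group mean, with bars for the SD over 6 V1, 5 all-neuron and 4 trunk arrays. Each row is read on its own: from mrc1a to kdrl the all-neuron points lie far left of the V1 and trunk points, and in tal1 the all-neuron point lies to the right.

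Leukocyte genes were higher in V1 than in all-neuron arrays in part of the list. Of 26 measured genes, from 56 listed, 12 rose and 0 fell (12.7% and 9.3% of all probe sets), with a median of 0.26. lyz, the lysozyme gene of myeloid cells, rose most (3.47, SE 0.23, adjusted p = 7.79e-08). It read 7.84 to 9.25 in V1 arrays with a median of 8.61, and 5.10, 4.90, 4.75, 5.19 and 5.57 in all-neuron arrays, with no overlap. coro1a, an actin regulator of leukocytes, rose by 2.05 (SE 0.20, adjusted p = 2.5e-06), though its other probe set differed by 0.11. The myeloid factor gene cebpa rose by 1.60 (SE 0.21, adjusted p = 6.08e-05) and the collagenase gene mmp13a by 1.36 (SE 0.29, adjusted p = 0.00313). csf1ra, the receptor of a macrophage growth factor that pigment cells also carry, rose by 0.66 (adjusted p = 0.000172) at a dim level. Other defining genes did not pass. The peroxidase gene mpx differed by 0.05 (adjusted p = 0.809), the macrophage receptor gene marco by −0.08 (adjusted p = 0.535) and the pan-leukocyte phosphatase gene ptprc by 0.13 (adjusted p = 0.602). Other mpx probe sets differed by 0.24, 0.21 and −0.03. Of the 26 genes 15 stayed below the median of all values in every group, mpx, marco and ptprc among them. Of the 12 that rose, csf1ra, srgn, ncf1, ncf4 and ctss2.2 also stayed below it. ncf4 (0.24, adjusted p = 0.0317) lost its call without any 1 of 6 arrays (adjusted p between 0.0619 and 0.0743). mmp9 passed narrowly (adjusted p = 0.0461). Leaving out single arrays, 9 to 13 leukocyte genes rose.

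Set against trunk arrays, leukocyte genes in V1 arrays went in both directions, and the share that fell was near that of all probe sets. Of 26 genes 3 rose and 6 fell (11.5% and 23.1%, beside 22% and 18% of all probe sets), with a median of −0.18. lcp1 and cpa5, picked with their levels known, were also lower in V1 than in trunk arrays. ctss2.1, a cathepsin gene, fell by 2.07 (SE 0.30, adjusted p = 5.18e-05) and arpc1b, a subunit of the actin-nucleating Arp2/3 complex, fell by 1.05 (SE 0.18, adjusted p = 0.000263). ctss2.1 read 4.22 to 4.91 in V1 arrays with a median of 4.51, and 7.52, 7.05, 5.23 and 6.54 in trunk arrays. Further genes that fell were ptpn6 (−0.85, adjusted p = 0.00508), laptm5 (−0.62, adjusted p = 0.0177), ptprc (−0.52, adjusted p = 0.0176) and wasb (−0.40, adjusted p = 0.00111). Of these ptpn6, ptprc and wasb were dim, with means below 5.52 in both groups. ctss2.1, ptpn6, laptm5, ptprc and wasb all read higher in trunk arrays 1 and 2 than in trunk arrays 3 and 4. In arrays 3 and 4 laptm5 read 4.90 and 5.26, beside a V1 mean of 4.93. ptpn6 read 4.54 and 4.71 there (V1 mean 4.28), ptprc 3.51 and 3.47 (3.18), and wasb 4.09 and 4.06 (3.73). The 3 that rose were csf1ra (0.56, adjusted p = 0.000555), the cathepsin gene ctss1 (0.36, adjusted p = 0.00349) and ncf4 (0.26, adjusted p = 0.0155), a subunit of the phagocyte oxidase, all dim. ncf4 lost its call without trunk array 2 (adjusted p = 0.0605).

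Of the 12 leukocyte genes that rose in V1 over all neurons, 9 did not pass between V1 and trunk arrays, 2 rose (csf1ra and ncf4) and 1 fell (arpc1b, which differed by 0.88 between V1 and all neurons). Read by their brightest probe sets, the 9 differed from trunk by −0.38 to 0.17. lyz read 9.14, 8.49, 8.11 and 8.54 in trunk arrays, and its log2 difference between V1 and trunk was −0.00 (SE 0.25, adjusted p = 0.995). srgn, the gene of a granule proteoglycan (0.01, SE 0.26), coro1a (−0.03, SE 0.21), ctss2.2 (0.04) and cyba (−0.08) lay nearest to lyz. However, the other probe sets of coro1a, ctss2.2 and cyba differed by −0.45, −0.29 and −0.29 between V1 and trunk. cebpa (0.17, SE 0.23) was farthest above 0, and mmp9 (−0.38, SE 0.39), mmp13a (−0.32, SE 0.31) and ncf1 (−0.28, SE 0.24) were farthest below 0. A p above the threshold does not show that these levels are equal. Whether their differences and that of lcp1 (−1.55, SE 0.19) differ from each other was not tested.

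Between all neurons and trunk 17 of 26 leukocyte genes fell and 0 rose (20.6% and 20.8% of all probe sets), with a median of −0.53 beside −0.03 over all probe sets. lyz fell by 3.47 (SE 0.26, adjusted p = 7.63e-08) and ctss2.1 fell by 2.14 (SE 0.31, adjusted p = 4.3e-05). With all-neuron arrays 4 and 5 alone 11 fell, beside 2657 of all 15502 probe sets (3196 with all arrays).

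**Figure D3:**
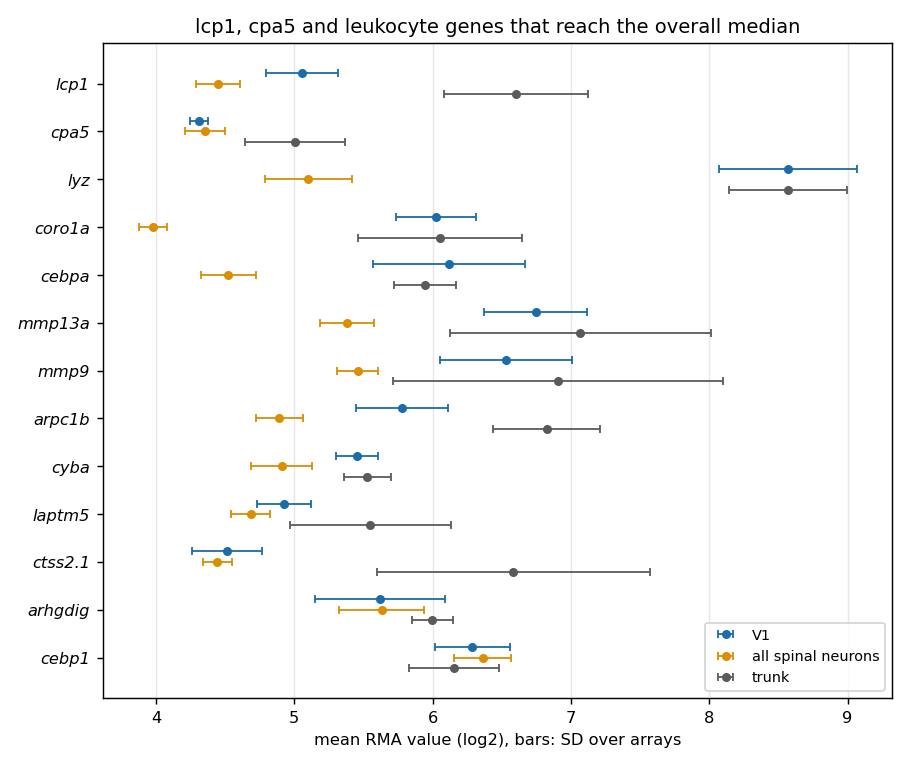
Mean RMA value (log2, horizontal axis) of lcp1, cpa5 and the leukocyte genes that reach 5.52 in at least 1 group mean, with bars for the SD over 6 V1, 5 all-neuron and 4 trunk arrays. Each row is read on its own: for lyz, coro1a and cebpa the V1 point lies by the trunk point, whereas for lcp1, cpa5, ctss2.1 and arpc1b it lies well left of it.

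Red cell genes passed the test against all neurons in most cases and seldom against trunk arrays. Of 22 measured red cell genes, from 41 listed, 16 rose and 0 fell in V1 relative to all neurons (12.7% and 9.3% of all probe sets; median 1.32). Relative to trunk 0 rose and 2 fell in V1 (22% and 18% of all probe sets; median −0.19), and 0 rose and 19 fell in all neurons (20.8% and 20.6%; median −1.95). The 2 that fell relative to trunk were the red cell membrane skeleton genes sptb (−1.52, SE 0.24, adjusted p = 8.77e-05) and ank1a (−0.41, adjusted p = 0.00442). The embryonic globin genes hbbe3 and hbae3 led the first comparison, at 11.54 and 12.81 in V1 arrays and 5.25 and 6.94 in all-neuron arrays. Markers of other cells also differed between the groups. All 10 measured pigment and neural crest genes rose in V1 relative to all neurons (12.7% of all probe sets). The mean over the 7 that reach the median of all values in at least 1 group mean was 8.63 to 9.72 in V1, 6.05 to 6.75 in all-neuron and 7.50 to 8.33 in trunk arrays. This filter uses the levels compared, so such means are descriptions. The pigment gene tyr entered through V1 alone (6.66, beside 4.47 in all-neuron and 5.48 in trunk arrays). Of the 10 pigment and neural crest genes 9 also rose in V1 relative to trunk, beside 22% of all probe sets. Of 15 pronephros genes 6 rose and 2 fell in V1 relative to all neurons, beside 12.7% and 9.3% of all probe sets. The 2 that fell were gata3, which V2b cells also express, and rfx2. A different set of 6, those that reach the median of all values, includes gata3 and rfx2 and only part of the genes that rose. Their mean was 7.45 to 8.13 in V1, 6.19 to 7.48 in all-neuron and 6.53 to 7.01 in trunk arrays. gata3 entered this mean through all neurons alone (7.50, beside 4.28 in V1 and 5.28 in trunk arrays). Skeletal muscle genes, like lcp1 and cpa5, were lower than in trunk arrays. In V1 24 of 24 fell, beside 18% of all probe sets (median −4.04). In all neurons 24 of 24 fell, beside 20.6% (median −2.57). The mean of these muscle genes was 6.66 to 7.55 in V1, 7.17 to 9.19 in all-neuron and 10.69 to 10.85 in trunk arrays. The part of such cells in the vessel and leukocyte signals was not tested.

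Within the V1 group, the arrays fell in a different order for the vessel signal than for the red cell signal. mrc1a was highest in arrays 2, 5 and 4, and so was the mean of 12 vessel genes, at 7.39, 7.30 and 6.93 there and 6.70, 6.51 and 6.84 in arrays 1, 3 and 6. The mean of 16 red cell genes was highest in array 6 (8.39) and array 2 (8.01), and low in array 5 (7.04) and array 3 (6.93). Array 5 thus combined the second highest mrc1a level, 8.72, with the second lowest red cell mean. Array 6 had the highest red cell mean and the lowest lcp1 level, 4.76.

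These relations were measured over 6 arrays, with 7 gene lists and 3 genes, or 21 relations in all. Pearson's r between mrc1a and the vessel mean was 0.871 (exact permutation p = 0.0306, adjusted p = 0.16), with Spearman's rho 0.943 (exact permutation p = 0.0167, adjusted p = 0.233). Without arrays 2 and 5, the farthest from the median, r was 0.681. For mrc1a and the venous and lymphatic mean r was 0.624 (exact permutation p = 0.171, adjusted p = 0.361). It ranged from 0.225 to 0.809 when single arrays were left out. For mrc1a and the red cell mean r was 0.217 (exact permutation p = 0.672, adjusted p = 0.825) and rho 0.143 (exact permutation p = 0.803, adjusted p = 0.843), and r was 0.0288 without arrays 3 and 6. Between lcp1 and the mean of 11 leukocyte genes r was 0.826 (exact permutation p = 0.00972, adjusted p = 0.117) and rho 0.829 (exact permutation p = 0.0583, adjusted p = 0.245), with r 0.546 without arrays 2 and 4. Crosswise, r was 0.62 for mrc1a with the leukocyte mean (exact permutation p = 0.189, adjusted p = 0.361). For lcp1 with the vessel mean r was 0.789 (exact permutation p = 0.0944, adjusted p = 0.283). lcp1 read 5.22 to 5.35 in arrays 2, 4 and 5 and 4.76 to 4.87 in arrays 1, 3 and 6. Much of the variation of lcp1 thus lies in the step between these arrays, and its relations could not be tested within either set of 3. The vessel mean was also higher in arrays 2, 4 and 5. The leukocyte mean did not follow the step throughout, at 5.95 in array 5 and 5.96 in array 1. Between lcp1 and the red cell mean r was −0.106 (exact permutation p = 0.829, adjusted p = 0.829) and rho −0.2 (exact permutation p = 0.714, adjusted p = 0.843), and r was 0.118 without arrays 3 and 6.

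Of the 21 relations 0 passed after adjustment by r or by rho, and 4 by r and 3 by rho had an unadjusted p under 0.05. lcp1 also varied with the venous and lymphatic mean (r = 0.795, exact permutation p = 0.0111, adjusted p = 0.117; rho 0.886, exact permutation p = 0.0333, adjusted p = 0.233; r = 0.812 without arrays 2 and 6). cpa5 was highest with the pronephros mean (r = 0.836, exact permutation p = 0.0167, adjusted p = 0.117; rho 0.829, exact permutation p = 0.0583, adjusted p = 0.245; r = 0.553 without arrays 1 and 6), over a span of only 0.18 log2 units. By rho lcp1 also varied with the pronephros mean (rho 0.886, exact permutation p = 0.0333, adjusted p = 0.233). Its r there was 0.622 (exact permutation p = 0.113, adjusted p = 0.295), and −0.0152 without arrays 1 and 6. Whether the vessel and red cell relations of mrc1a differ was not tested. All-neuron and trunk groups have too few arrays for such relations.

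**Figure D4:**
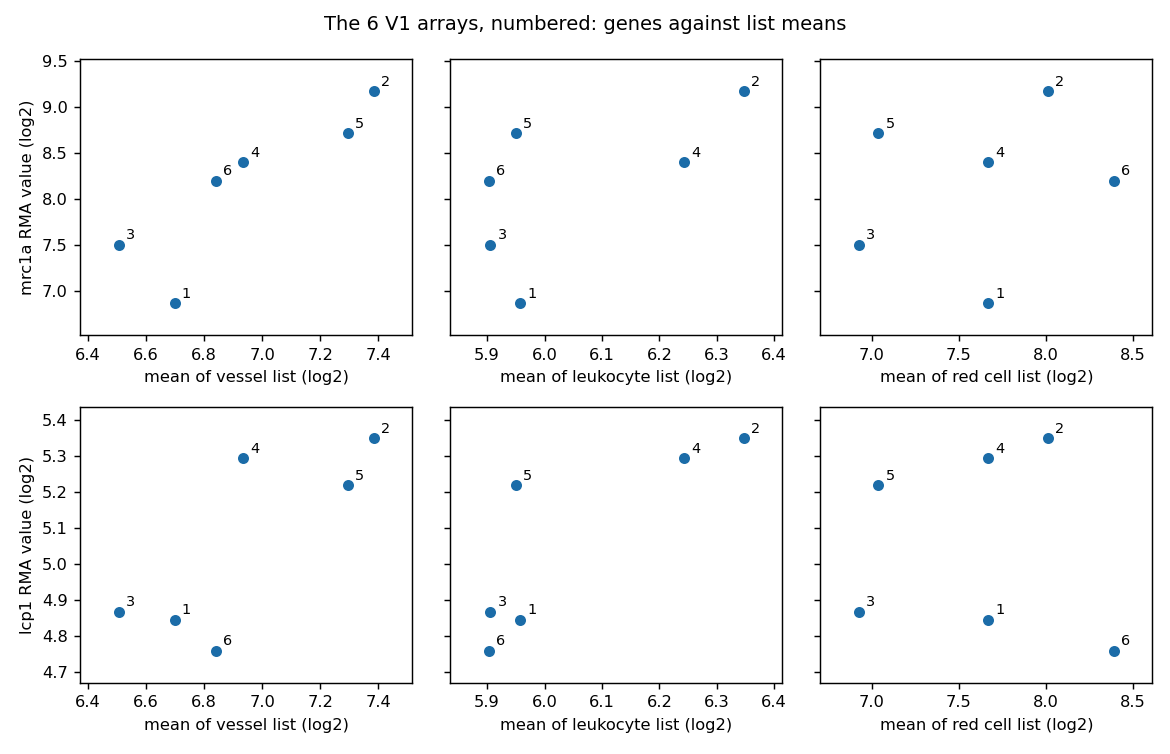
RMA values (log2, vertical axes) of mrc1a (upper row) and lcp1 (lower row) on the 6 V1 arrays, numbered, against the mean RMA value (log2, horizontal axes) of 12 vessel, 11 leukocyte and 16 red cell genes. In the vessel panels r is 0.871 for mrc1a and 0.789 for lcp1. In the leukocyte panels r is 0.62 for mrc1a and 0.826 for lcp1. In the red cell panels r is 0.217 and −0.106, and none of these passed after adjustment.

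Trunk arrays showed a further split that lcp1 and cpa5 shared and mrc1a did not. Trunk arrays 1 and 2 exceeded arrays 3 and 4 by 0.87 for lcp1 and 0.62 for cpa5 on average, while mrc1a differed by −0.14. A split in this direction as large as that of lcp1 was seen in 0.787% of all probe sets, and as large as that of cpa5 in 2.47%. Of 26 leukocyte genes 13 read higher in both of trunk arrays 1 and 2 than in either of the other two, beside 25.5% of all probe sets, 5 of 20 vessel genes, 8 of 22 red cell genes and 0 of 7 venous and lymphatic genes. Most of the 13 (csf1ra, marco, srgn, ncf1, ptprc, ptpn6, wasb, ctss1 and alox5ap) had means below 5.52 in every group. coro1a counted by a narrow margin, at 5.83 in trunk array 2 and 5.78 in array 4. So did alox5ap (3.11 in array 2 and 3.08 in array 4) and ctss1 (3.29 and 3.24 in the same arrays). The margin was also narrow for ptprc, at 3.55 in array 2 and 3.51 in array 3. wasb (4.15 in array 1 and 4.09 in array 3) and srgn (5.27 in array 2 and 5.20 in array 4) were close to this. The phosphatase gene ptpn6 read 6.08, 5.17, 4.54 and 4.71 in trunk arrays 1 to 4, and laptm5, a lysosomal membrane protein gene of leukocytes, 6.22, 5.81, 4.90 and 5.26. The gelatinase gene mmp9 did not follow, at 5.91, 6.34, 6.76 and 8.62. The control probe set named above split the same arrays, and its part in these values was not tested.

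**Figure D5:**
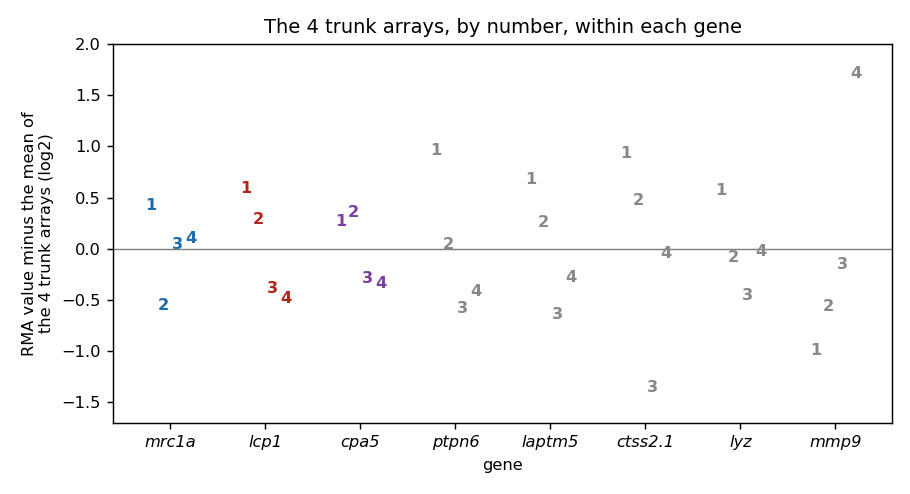
RMA values of 8 genes on the 4 trunk arrays as differences from each gene's trunk mean (log2, vertical axis), with digits for the array number. Arrays 1 and 2 lie above arrays 3 and 4 for lcp1, cpa5, ptpn6, laptm5 and ctss2.1, but not for mrc1a, lyz or mmp9, and array 4 stands highest for mmp9.

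The genes most like each of the 3 in pattern were found among 6356 probe sets by Pearson's r over all 15 arrays, a likeness that includes the differences between groups. For mrc1a these were dab2 (r = 0.993), the clotting factor gene f13a1b (0.990), aqp8a.1 (0.983), the kinase gene yrk (0.98) and the G protein gene gna12a (0.978), of which dab2 and aqp8a.1 are on the vessel lists. For lcp1 they were acadl, an enzyme gene of fatty acid breakdown (0.975), mrpl3 (0.956), coq2 (0.956), got2b (0.952) and glo1 (0.952). For cpa5 they were akt2l (0.965), mrps6 (0.962), vbp1 (0.954), mlf1 (0.953) and ankrd9 (0.951). None of these 10 genes is on the leukocyte list. Between the 3 genes themselves r was 0.542 for mrc1a and lcp1, 0.188 for mrc1a and cpa5, and 0.883 for lcp1 and cpa5.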

How the data were processed

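RMA values (log2 scale) were deposited, computed by the authors in Affymetrix Expression Console according to the submitters' processing notes. RNA was amplified in 2 rounds, per the labels' protocols; program versions were not given in the sources used here. Of 15617 probe sets 115 controls were left out, and 10795 of the others carried 1 gene symbol. limma 3.58.1 under R 4.3.3 (lmFit, eBayes, two-sided moderated test) was fitted with a mean for each group over the 15 arrays. Calls are Benjamini-Hochberg adjusted p under 0.05 over 15502 probe sets within a comparison. List genes entered through their brightest probe set. Genes named by rule are, per list, those with the largest called differences that reach 5.52 in a group mean, members of counts of 5 or fewer, and the 5 most alike genes, with mrc1a, lcp1 and cpa5 40 genes. Other genes (sptb, ank1a, gata3, rfx2 and every gene named as not called or outside these classes) were chosen after their values were seen. The 3 genes and the lists were chosen with earlier results of these data known. Correlations used all 720 orders of 6 arrays. Tested on simulated data of 15502 probe sets, the fit called 91% of 67 probe sets changed by 1 (log2) between V1 and all neurons. In either other comparison it called 86.6% of 67. For a change of 0.5 it called 47.8% of 67 between V1 and all neurons, 40.3% between V1 and trunk and 37.3% between all neurons and trunk. Of all calls, over changes of 0.5, 1 and 2 together, 4.82%, 7.41% and 8.07% were false in these comparisons. The simulated data held few changed probe sets and the same spread in every group, unlike the real arrays, so these shares may not carry over. Replicates are called biological in the series' design, with no clutch or day named. Of 13 same-numbered pairs of arrays 4 had deviations correlated above 0.1 (−0.135 to 0.356), so numbers were not treated as pairs. Alternatives were other scalings, a filter on dim probe sets, another variance prior, 2-group fits, the replicate block, a threshold of 0.01, every probe set, and fewer arrays. Genome positions and sequences were not used here. The number of arrays limits the precision.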

Additional observations from a re-analysis of the deposited data

Results flagged for a closer look

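In 102 groups of values, 4 held an array far from the others of its group, where chance alone would mark about 5% of groups. cpa5 read 4.10 in all-neuron array 1, beside 4.37 to 4.44 in the other all-neuron arrays. coro1a read 6.94 in trunk array 1, beside 5.67 to 5.83 in the other trunk arrays. The mean of red cell genes was 7.45 in trunk array 3, beside at least 7.91 in the others. The mean of pronephros genes was 7.48 in all-neuron array 1, beside 6.19 to 6.25 in the others.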

How the results depend on the processing

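The differences of mrc1a moved by less than the spread between arrays under every alternative run, and lay between 3.61 (equal ribosomal protein means) and 4.40 (without 1 array) for V1 and all neurons. Equal ribosomal protein means shifted the median of all probe sets to −0.55 between V1 and all neurons, −0.09 between V1 and trunk and 0.44 between all neurons and trunk, against which the next values are read. Under this scaling lcp1 stood at 0.072 and cpa5 at −0.58 between V1 and all neurons, and at −1.69 and −0.19 between all neurons and trunk. Lower between V1 and all neurons were then 3 venous, 7 vessel, 9 leukocyte and 3 red cell genes, and 5 leukocyte genes were higher. Between V1 and trunk 0 venous genes and 1 leukocyte gene were higher. Between all neurons and trunk 3 venous, 6 vessel, 5 leukocyte and 2 red cell genes were higher, and 4 vessel and 10 leukocyte genes lower. All probe sets then split into 531 higher and 11477 lower for V1 and all neurons and 8628 and 1281 for all neurons and trunk. For V1 and trunk they split into 2244 and 2227. Equal array medians gave 1688 and 1778 for V1 and all neurons and 3639 and 2771 for all neurons and trunk, beside 1966 and 1442, and 3219 and 3196. Equal medians and the trended prior each called 1 venous gene lower between V1 and all neurons, and cyclic loess 0 higher between V1 and trunk. Over all probe sets the trended prior called 1439 lower between V1 and all neurons, and cyclic loess 2952 higher between V1 and trunk.

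Alternatives added after seeing the data used fewer arrays. With trunk arrays 3 and 4 alone lcp1 stood at −1.11 and cpa5 at −0.39 between V1 and trunk, and at −1.72 and −0.34 between all neurons and trunk, and 0 venous and 3 vessel genes were higher in V1 than trunk. With trunk arrays 1 and 2 alone these were −1.98 and −1.01, and −2.59 and −0.97, and 1 vessel gene was higher in all neurons than trunk. With all-neuron arrays 4 and 5 alone 9 vessel and 8 leukocyte genes were higher in V1 than all neurons. In all neurons 5 vessel and 11 leukocyte genes were then lower than in trunk. Calls over all 15502 probe sets fell too. With trunk arrays 3 and 4 alone 2491 were higher in V1 than trunk (3411 with all arrays). With trunk arrays 1 and 2 alone 2766 were higher in all neurons than trunk (3219 with all arrays). With all-neuron arrays 4 and 5 alone 1582 were higher in V1 than all neurons (1966 with all arrays). In that setting 2657 were lower in all neurons than trunk (3196 with all arrays). Without dim probe sets cpa5 had no value, 7 leukocyte genes were higher between V1 and all neurons, 0 higher and 3 lower between V1 and trunk, and 9 lower between all neurons and trunk, with 1 red cell gene lower between V1 and trunk, since fewer genes were tested. Of the 8578 probe sets left without the dim ones, 1611 were higher between V1 and all neurons. Between V1 and trunk 3031 of these were higher and 1792 lower, and 2406 were lower between all neurons and trunk. In the fit with the replicate block, whose numbers are shared labels only, 1 red cell gene was higher and 4 were lower between V1 and trunk. Over all probe sets 2944 were higher and 2174 lower there. mrc1a differed by 4.14 between V1 and all neurons in this fit. Leaving out single arrays gave 0 to 1 lower venous and 0 to 1 lower leukocyte genes between V1 and all neurons, and 2 to 4 lower red cell genes between V1 and trunk.

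Some correlations changed sign between settings, and none of these passed where the sign turned. Of the 21 relations 0 had passed with all 6 arrays, and 4 arrays allow too few orders for a small p. The lack of a pass therefore says nothing about the turns. Without the 2 farthest arrays r was −0.16, −0.507 and −0.131 for mrc1a with leukocyte, pigment and pronephros means, 0.118, −0.723 and −0.0152 for lcp1 with red cell, pigment and pronephros means, and −0.281, −0.378, −0.382, 0.447 and 0.335 for cpa5 with venous, vessel, leukocyte, red cell and muscle means. With equal ribosomal protein means r was 0.24 and 0.275 for lcp1 with red cell and muscle means, and 0.298, 0.469 and 0.22 for cpa5 with red cell, pigment and muscle means. Cyclic loess gave 0.157 for cpa5 with the pigment mean. Leaving out single arrays, r ranged from −0.0129 to 0.476 for mrc1a with the red cell mean and −0.274 to 0.942 with the pigment mean. For lcp1 it ranged from −0.428 to 0.446 with the red cell mean and −0.607 to 0.258 with the muscle mean. For cpa5 it ranged from −0.0101 to 0.869 with the vessel mean, −0.725 to 0.226 with the red cell mean, −0.667 to 0.151 with the pigment mean and −0.784 to 0.0115 with the muscle mean. The causes were not tested.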
